A study of Homo sapiens with 8 samples.

Results

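The 8 genes LAMA3, LAMB3, ITGA6, ITGB4, COL17A1, DST, PLEC and CD151 encode chains of laminin-332 and proteins of the hemidesmosome. They were chosen by name for their role, with earlier results of these data known. All 8 were found among the 58395 genes of the count table. Each had enough reads to be tested.

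Laminin-332 is a basement membrane protein whose alpha 3 and beta 3 chains are encoded by LAMA3 and LAMB3. It is secreted beneath epithelial cells, where it is a ligand of the integrin alpha 6 beta 4, whose chains are ITGA6 and ITGB4. In skin this integrin forms the core of the hemidesmosome together with collagen XVII (COL17A1), the tetraspanin CD151 and the plakins BP230 (from DST) and plectin (PLEC), which tie it to keratin filaments. Podocytes, the epithelial cells of the kidney filter, hold on to their basement membrane mainly through another laminin receptor, the integrin alpha 3 beta 1, which also associates with CD151.

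RNA was measured in AB8 cells, a line derived from human podocytes, which carried the construct pIND21_hCrb2+GFP_S267A, named for human CRB2, GFP and the S267A change. CRB2 is a polarity protein of the Crumbs family that spans the cell membrane. The Dox group held 4 libraries from cells induced with doxycycline for 48 h, and the woDox group held 4 libraries from cells with the same construct and no induction. All cells were between passages 3 and 8 after modification, and the replicate numbers 1 to 4 occur in both groups. Because both groups carry the construct and the Dox group alone received the drug, effects of doxycycline, of raised CRB2, of GFP and of the S267A change cannot be told apart.

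The promoter windows of LAMA3 and LAMB3 are shown first because they belong to 2 chains of 1 protein whose transcripts were tested with different outcomes. That of DST is shown because its call held with any pair of libraries left out. They come from RefSeq (GRCh38.p14) and run 5′ to 3′ on the gene's strand, from 250 bases before to 50 bases after an annotated start. Windows were given for 5 of the 8 genes, 10 windows in all. Capitals mark matches on either strand to the AP-1 motif TGANTCA or to the NF-kB motif, GGGA and CC with 4 bases of any kind between them.
LAMA3, chr18:23872770-23873069, plus strand: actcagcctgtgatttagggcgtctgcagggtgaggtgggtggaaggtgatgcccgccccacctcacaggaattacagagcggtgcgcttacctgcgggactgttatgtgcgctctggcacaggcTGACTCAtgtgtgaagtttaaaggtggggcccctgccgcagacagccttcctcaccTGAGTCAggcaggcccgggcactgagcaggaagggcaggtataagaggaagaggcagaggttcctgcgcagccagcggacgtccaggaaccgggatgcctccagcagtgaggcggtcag
LAMB3 start 1, chr1:209652376-209652675, minus strand: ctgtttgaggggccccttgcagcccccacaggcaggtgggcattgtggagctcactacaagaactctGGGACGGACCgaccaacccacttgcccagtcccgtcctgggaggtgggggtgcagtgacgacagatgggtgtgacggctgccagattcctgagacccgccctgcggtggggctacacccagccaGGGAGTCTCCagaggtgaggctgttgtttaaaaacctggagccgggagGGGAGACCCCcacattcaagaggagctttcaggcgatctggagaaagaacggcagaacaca
LAMB3 start 3, chr1:209651325-209651624, minus strand: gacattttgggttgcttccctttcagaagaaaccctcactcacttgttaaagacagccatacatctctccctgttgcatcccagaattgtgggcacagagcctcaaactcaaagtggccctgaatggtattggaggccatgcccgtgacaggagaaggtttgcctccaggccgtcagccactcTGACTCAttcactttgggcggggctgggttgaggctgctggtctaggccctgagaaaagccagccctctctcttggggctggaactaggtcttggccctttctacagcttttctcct
DST start 1, chr6:56954781-56955080, minus strand: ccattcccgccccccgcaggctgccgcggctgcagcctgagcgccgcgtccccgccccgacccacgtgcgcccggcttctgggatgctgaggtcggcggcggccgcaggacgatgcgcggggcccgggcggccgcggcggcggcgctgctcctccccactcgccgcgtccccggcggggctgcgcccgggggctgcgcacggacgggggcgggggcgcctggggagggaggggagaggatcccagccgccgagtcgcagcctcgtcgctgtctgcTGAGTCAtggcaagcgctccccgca

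The LAMA3 window, whose start lies inside the gene, held 2 AP-1 matches, beginning 125 and 69 bases before the start, and 0 NF-kB matches. The window of LAMB3 start 1 held 3 NF-kB matches, beginning 183, 59 and 11 bases before the start, and 0 AP-1 matches. LAMB3 start 3 had 1 AP-1 match, 67 bases upstream. For DST, 1 AP-1 match lay 25 bases after start 1, and starts 2 and 3, not shown, held 0 AP-1 and 0 NF-kB matches. The AP-1 motif occurred in 3 of the 10 windows, against 7.71% of all 35116 promoter windows, and the NF-kB motif in 3 of the 10, against 25.6% of all. The TEAD motif GGAATG was found in 1 of the 10 windows, against 14.0% of all. The motifs and the windows shown were chosen with results and matches known, some windows of 1 gene overlap, and a match is a description of letters.

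CRB2 had 1734, 4252, 4599 and 4481 CPM in Dox libraries 1 to 4, against 8.31, 26.0, 26.4 and 21.8 CPM in woDox libraries 1 to 4, where CPM is the read count scaled to a common library size after TMM scaling. Every Dox library was far above every woDox library. CRB2 shares 362 exonic bases with DENND1A on the opposite strand. The libraries held 16829454 to 23081616 counted reads. Both libraries numbered 1 stood apart: they lay above all 6 others for 21.9% and below them for 22.4% of the 15637 tested genes, together 44.2%.

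Without a replicate block, 0 of the 8 genes passed an adjusted p of 0.05 in edgeR's quasi-likelihood test, where 0.0384% of all tested genes did (0.032% higher and 0.0064% lower in Dox cells). At an unadjusted p under 0.05 there were 2 of the 8, LAMB3 and DST, against 9.38% of all tested genes. DESeq2 without the block called 1 of the 8, LAMB3, against 1.36% of all genes, 0.579% higher and 0.782% lower. A second fit took the replicate number as a block, which compares libraries within pairs of 1 number. There 4 of the 8 passed in edgeR, against 13.8% of all genes. Of these 3 rose, against 7.51% of all, and 1 fell, against 6.29% of all. DESeq2 with the block called 3, LAMB3, DST and PLEC, against 7.58% of all, 3.94% higher and 3.64% lower. The median log2 change of the 8 genes was 0.10 without and 0.093 with the block, and over all tested genes it was 0.00 in both. In edgeR, the calls of the 8 genes and of listed genes given with the block were not made without it.

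LAMB3, the beta 3 chain, fell with the block and had the largest change of the 8 genes. LAMB3 (GRCh38, ENSG00000196878, chromosome 1, 209614870 to 209652466, minus strand) stood at 197, 288, 272 and 203 CPM in Dox libraries 1 to 4, against 394, 400.5, 419 and 373 CPM in woDox libraries 1 to 4. Every Dox library lay below every woDox library. Groups that do not overlap were seen for 2 of the 8 genes, against 7.04% of all tested genes, and 3.22% of all were lower in Dox cells in this way. The group means were 240.0 ± 46.6 CPM in Dox and 397 ± 19.0 CPM in woDox cells (SD, n = 4 each). Dox over the woDox library of the same number gave 0.501, 0.720, 0.648 and 0.544 in pairs 1 to 4. With the block its log2 change came to -0.74 (SE 0.10, edgeR adjusted p = 0.0110), and it was -0.72 (SE 0.13, adjusted p = 0.128) without it. DESeq2 gave an adjusted p of 8.11e-05 without and 4.55e-08 with the block. Without pair 4 the block fit gave a log2 change of -0.70 and no longer passed (adjusted p = 0.0783). In bulk RNA, fewer cells that express a gene and less RNA per cell cannot be told apart.

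LAMA3, the alpha 3 chain, did not pass in either fit. LAMA3 (ENSG00000053747, chromosome 18, 23689443 to 23956222, plus strand) had 57.7, 30.2, 28.4 and 31.3 CPM in Dox libraries 1 to 4, against 48.0, 30.7, 31.7 and 30.4 CPM in woDox libraries 1 to 4. Both libraries numbered 1 were high, the other 6 lay between 28.4 and 31.7 CPM, and the groups overlapped. Its log2 change was 0.042 (SE 0.063, edgeR adjusted p = 0.711) with the block, with 2 pairs higher and 2 lower. Reads are counted for the whole gene, so its long and short transcripts are not separated.

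Per length, the LAMB3 level exceeded the LAMA3 level in every library. The ratio of CPM per kilobase of exon, LAMB3 over LAMA3, was 10.7, 29.9, 29.9 and 20.3 in Dox libraries 1 to 4, against 25.7, 40.8, 41.5 and 38.4 in woDox libraries 1 to 4. It was lower in the Dox library of all 4 pairs, and the group ranges overlapped through woDox library 1, which lay below Dox libraries 2 and 3. No test was run on this ratio.

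**Figure D1:**
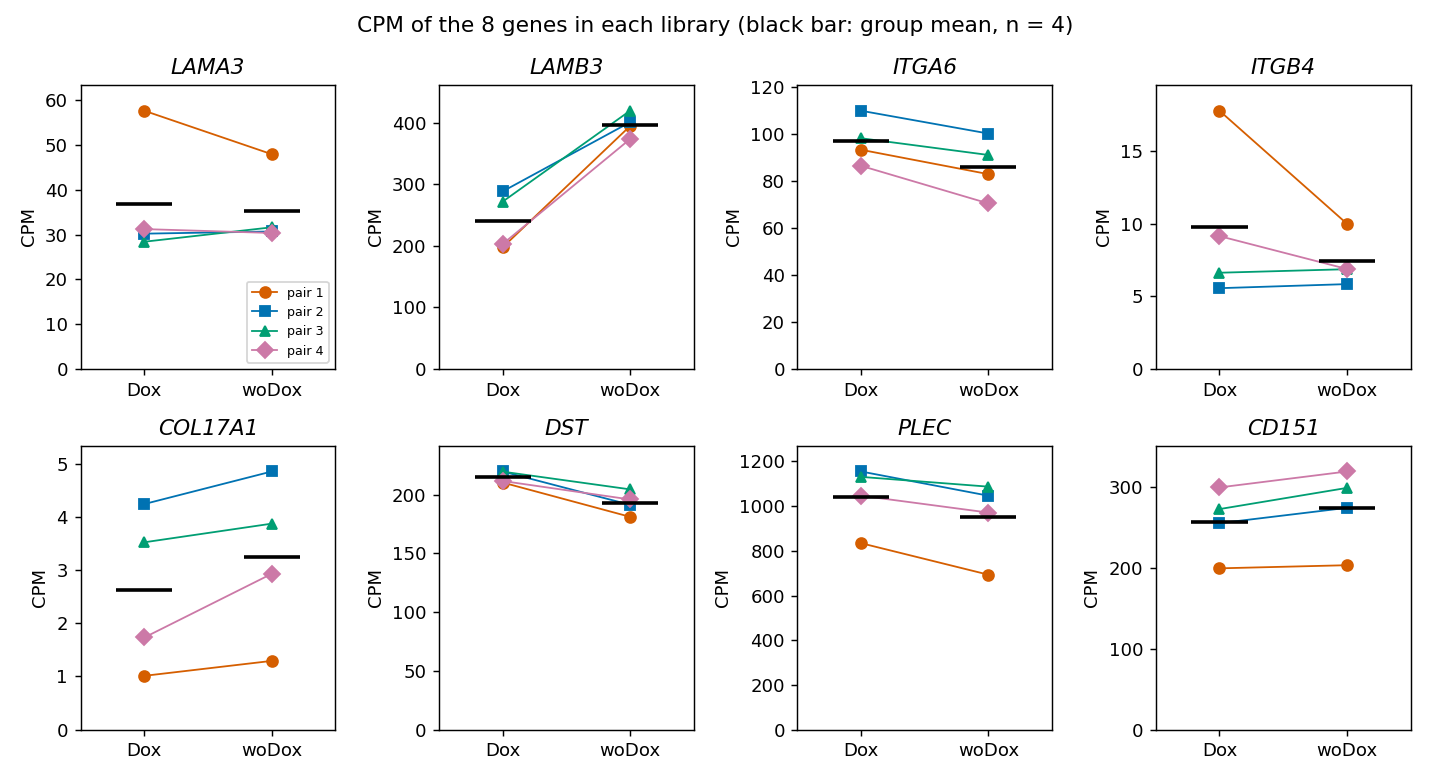
CPM of each of the 8 genes (y axis, from 0) in the 4 Dox libraries (left) and the 4 woDox libraries (right), with lines joining libraries of the same number and black bars at the group means. LAMB3 is lower in every Dox library, at 197 to 288 CPM, than in every woDox library, at 373 to 419 CPM, and pair 1 stands apart for LAMA3, ITGB4, COL17A1, PLEC and CD151.

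The receptor chains of laminin-332 differed in level. ITGA6 (ENSG00000091409, chromosome 2, 172427354 to 172506282, plus strand), the alpha 6 chain, which also pairs with integrin beta 1, had 93.2, 109.9, 98.1 and 86.4 CPM in Dox libraries 1 to 4, against 82.9, 100.1, 91.0 and 70.4 CPM in woDox libraries 1 to 4. The groups overlapped, while each Dox library was above its pair partner, at 1.13, 1.10, 1.08 and 1.23 times woDox in pairs 1 to 4, as was so in all 4 pairs for 18.6% of all tested genes. ITGA6 rose with the block by a log2 change of 0.17 (SE 0.042, edgeR adjusted p = 0.0133), and without the block the adjusted p was 0.729. It no longer passed without pair 4 (adjusted p = 0.0907) or in DESeq2 with the block (adjusted p = 0.0646). ITGA6 shares between 52 and 174 exonic bases with each of 3 antisense genes.

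ITGB4 (ENSG00000132470, chromosome 17, 75721328 to 75757818, plus strand), the beta 4 chain, pairs with alpha 6 and carries the long cytoplasmic tail that binds plectin. It was measured at 17.8, 5.56, 6.62 and 9.14 CPM in Dox libraries 1 to 4, against 9.998, 5.84, 6.86 and 6.88 CPM in woDox libraries 1 to 4, from 115 to 351 reads a library. Both libraries numbered 1 were the highest of all 8, and the groups overlapped. Its log2 change was 0.33 (SE 0.15, edgeR adjusted p = 0.184) with the block and 0.40 (SE 0.36) without it, where it did not pass either. Dox over woDox was 1.78, 0.952, 0.965 and 1.33 in pairs 1 to 4, above 1 in pairs 1 and 4 and below 1 in pairs 2 and 3.

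Per length, ITGB4 was far below ITGA6. The ITGB4 level was 18.4%, 4.89%, 6.52% and 10.2% of the ITGA6 level in Dox libraries 1 to 4, against 11.7%, 5.63%, 7.28% and 9.44% in woDox libraries 1 to 4. These shares overlapped between the groups. In each group they were highest in library 1 and lowest in library 2.

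**Figure D2:**
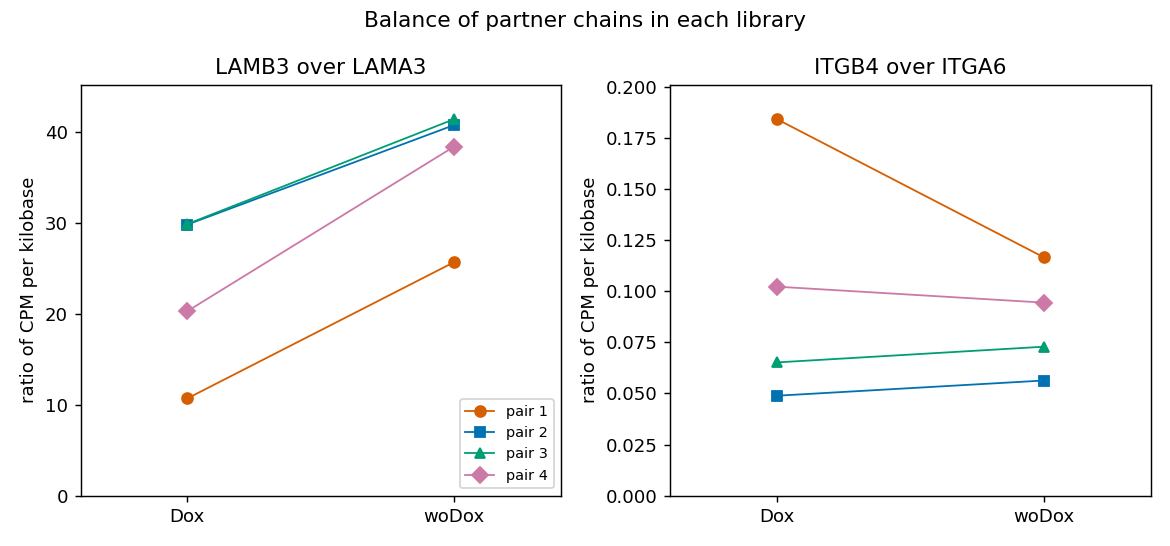
Ratio of CPM per kilobase of exon (y axis, from 0) of LAMB3 over LAMA3 (left panel) and ITGB4 over ITGA6 (right panel) in each Dox and woDox library, with lines joining libraries of the same number. The laminin ratio is lower in Dox cells in all 4 pairs, and the integrin ratio is higher in pairs 1 and 4 and lower in pairs 2 and 3.

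CD151 (ENSG00000177697, chromosome 11, 832843 to 839831, plus strand), the tetraspanin that associates with laminin-binding integrins, did not pass. It had 199, 255, 272 and 299 CPM in Dox libraries 1 to 4, against 203, 274, 298 and 319 CPM in woDox libraries 1 to 4. The groups overlapped, and both libraries numbered 1 were the lowest. Dox over woDox was 0.981, 0.931, 0.912 and 0.938 in pairs 1 to 4. With the block its log2 change came to -0.089 (SE 0.034, edgeR adjusted p = 0.101), and the adjusted p was 0.928 without it. CD151 shares 257 exonic bases with POLR2L on the opposite strand, and how the counting treated strand is not known here.

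COL17A1 (ENSG00000065618, chromosome 10, 104031286 to 104085957, minus strand) encodes collagen XVII, the transmembrane collagen of the hemidesmosome, and had the lowest level of the 8 genes. It stood at 1.01, 4.24, 3.52 and 1.73 CPM in Dox libraries 1 to 4, against 1.29, 4.86, 3.87 and 2.93 CPM in woDox libraries 1 to 4, from 20 to 104 reads a library. These levels lie above the limit that 3 reads set, 0.131 to 0.179 CPM. Both libraries numbered 1 were the lowest and the groups overlapped. Its log2 change was -0.31 (SE 0.15, edgeR adjusted p = 0.202) with the block. COL17A1, CD151 and LAMB3 were lower in the Dox library of all 4 pairs, as were 17.0% of all tested genes.

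The plakin genes DST and PLEC both rose with the block, each by a small amount. DST (ENSG00000151914, chromosome 6, 56457987 to 56954628, minus strand) encodes dystonin, whose epithelial isoform is BP230 and whose other isoforms bind actin and microtubules. It had 210.2, 219.6, 219 and 212 CPM in Dox libraries 1 to 4, against 181, 191, 204 and 196 CPM in woDox libraries 1 to 4. Every Dox library lay above every woDox library, as for 3.82% of all tested genes. With the block its log2 change came to 0.16 (SE 0.036, edgeR adjusted p = 0.0105), and the adjusted p was 0.384 without it. DST was the only one of the 8 genes called with each pair left out in turn (adjusted p 0.0348 to 0.0423). Counts per gene do not show which isoform the reads came from.

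PLEC (ENSG00000178209, chromosome 8, 143915147 to 143976734, minus strand), which encodes the cytolinker plectin, had the most reads of the 8 genes. It had 834, 1155, 1131 and 1047 CPM in Dox libraries 1 to 4, against 693, 1047, 1087 and 971 CPM in woDox libraries 1 to 4. The groups overlapped, both libraries numbered 1 were the lowest, and Dox over woDox was 1.20, 1.10, 1.04 and 1.08 in pairs 1 to 4. With the block its log2 change came to 0.14 (SE 0.038, edgeR adjusted p = 0.0229), and it was 0.13 (SE 0.15, adjusted p = 0.883) without it. It no longer passed without pair 1, 2 or 4 (adjusted p 0.0835, 0.0559 and 0.0753).

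**Figure D3:**
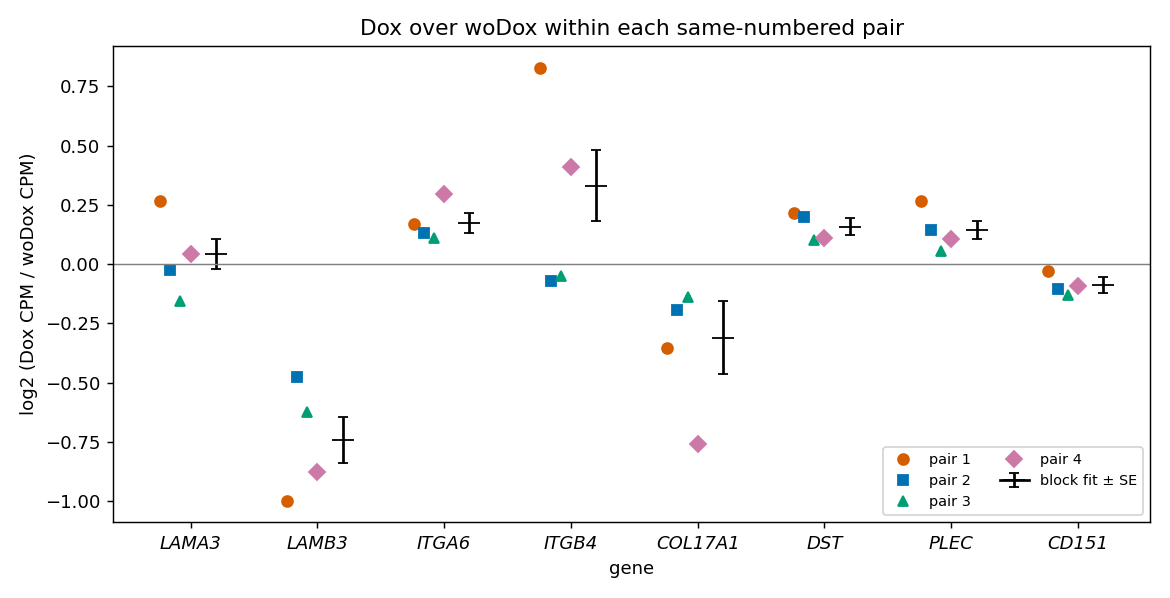
Log2 of Dox over woDox CPM in each of the 4 pairs (coloured points, y axis) for the 8 genes (x axis), with the estimate of the block fit and its SE in black. LAMB3, COL17A1 and CD151 lie below 0 in all 4 pairs, and ITGA6, DST and PLEC lie above 0 in all 4. ITGB4 and LAMA3 have pairs on both sides of 0.

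The distance of the libraries numbered 1 from the others exceeded the log2 change with induction for 5 of the 8 genes. The mean log2 CPM of the 2 libraries numbered 1 minus that of the other 6 was 0.98 for ITGB4, 0.79 for LAMA3, -1.48 for COL17A1, -0.51 for CD151 and -0.49 for PLEC. For these 5 of the 8 genes both libraries lay outside the range of the other 6, as for 44.2% of all tested genes. For LAMB3, ITGA6 and DST the difference was -0.18, -0.062 and -0.084. Over all tested genes the median absolute difference was 0.22.

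By level per length, LAMB3, CD151 and PLEC stood well above the other 5 genes. In Dox cells CD151 had 65.1 ± 10.7, PLEC 61.3 ± 8.59 and LAMB3 51.2 ± 9.95 CPM per kilobase (SD, n = 4 each), and their ranges overlapped. In woDox cells the order was LAMB3 with 84.6 ± 4.05, CD151 with 69.5 ± 12.8 and PLEC with 55.9 ± 10.4 CPM per kilobase, with LAMB3 overlapping CD151 and lying above PLEC in all libraries. ITGA6 followed at 14.8 ± 1.51 CPM per kilobase in Dox and 13.2 ± 1.93 in woDox cells, and DST at 5.08 ± 0.119 in Dox and 4.56 ± 0.230 in woDox cells. LAMA3 stood at 2.51 ± 0.948 CPM per kilobase in Dox and 2.40 ± 0.583 in woDox cells, ITGB4 at 1.45 ± 0.819 in Dox and 1.09 ± 0.267 in woDox cells, and COL17A1 at 0.372 ± 0.213 in Dox and 0.458 ± 0.215 in woDox cells. From PLEC and LAMB3 down, neighbours in this order did not overlap within a group, except LAMA3 and ITGB4 in Dox cells. With the longest transcript as the length, CD151 came first in both groups, at 138 CPM per kilobase in Dox and 147 in woDox cells.

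**Figure D4:**
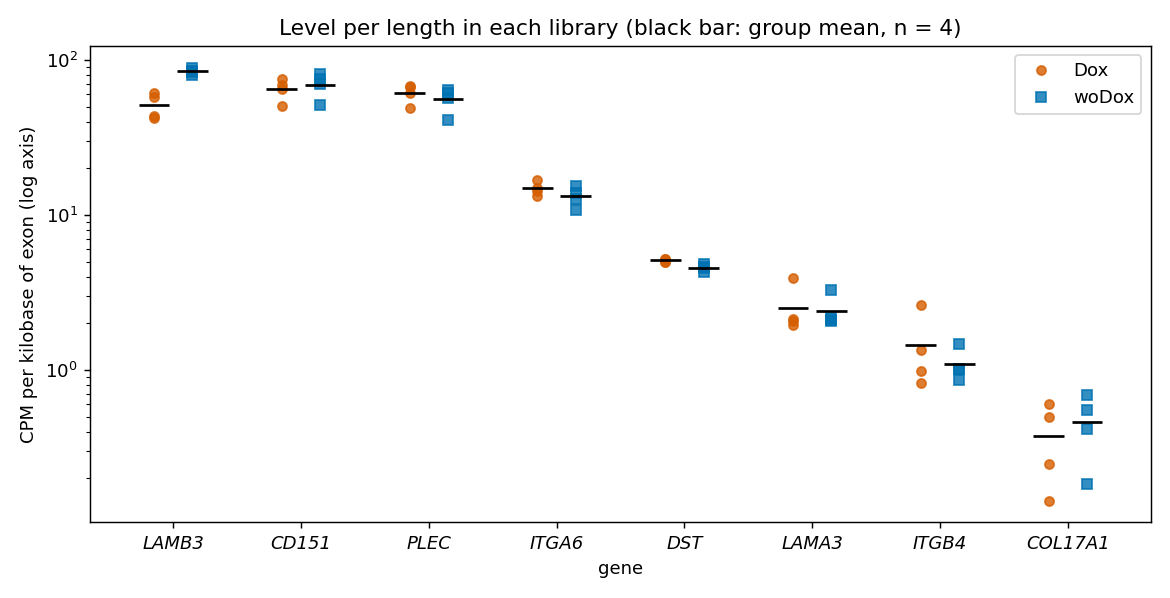
CPM per kilobase of annotated exon (log axis) of each gene in every Dox (circles) and woDox (squares) library, with black bars at the group means. LAMB3, CD151 and PLEC lie highest, and COL17A1 lies lowest of the 8 genes in both groups.

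Of 19 listed receptors, processing enzymes and anchoring partners of laminin-332, 18 were tested. With the block 2 rose and 4 fell, against 7.51% and 6.29% of all tested genes, with a median log2 change of -0.038. HSPG2, the basement membrane proteoglycan perlecan, rose to 416 ± 35.9 CPM in Dox, against 312 ± 33.1 CPM in woDox cells (log2 change 0.42, SE 0.037, edgeR adjusted p = 1.17e-05). SDC4, the heparan sulfate co-receptor syndecan 4, fell to 699.8 ± 74.2 CPM in Dox, against 914 ± 72.6 CPM in woDox cells (log2 change -0.39, SE 0.036, edgeR adjusted p = 1.79e-05). MMP14, a membrane-bound matrix metalloproteinase, fell to 274 ± 31.6 CPM in Dox, against 341 ± 27.0 CPM in woDox cells (log2 change -0.32, SE 0.038, edgeR adjusted p = 1.27e-04). These 3 calls held with any pair left out. SDC2, another syndecan, rose with a log2 change of 0.46 (adjusted p = 0.00673). COL7A1, the collagen of anchoring fibrils, fell with an adjusted p of 0.04996 (log2 change -0.51) and was lost without pair 1, 3 or 4 (adjusted p 0.169, 0.163 and 0.0991). ECM1, an extracellular matrix protein, fell with a log2 change of -0.15 (adjusted p = 0.0325) and was lost without any 1 pair. ITGA3 and ITGB1, the chains of the integrin alpha 3 beta 1, did not pass, with log2 changes of 0.0083 and 0.055 (adjusted p 0.942 and 0.415).

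Of 20 listed genes of hemidesmosome linkage and integrin beta 4 signalling, 17 were tested. With the block 3 rose and 6 fell, against 7.51% and 6.29% of all tested genes, with a median log2 change of -0.073. That count of 9 dropped to 3 without pair 3 and to 3 without pair 4. The count over all tested genes also dropped, from 2159 to 1254 and to 909. ERBIN, which binds BP230 and integrin beta 4, rose to 292 ± 32.4 CPM in Dox, against 224 ± 13.9 CPM in woDox cells (log2 change 0.38, SE 0.041, edgeR adjusted p = 6.31e-05). EGFR, a receptor kinase that acts on integrin beta 4 in keratinocytes, rose to 299.9 ± 17.2 CPM in Dox, against 221 ± 34.2 CPM in woDox cells (log2 change 0.45, SE 0.057, edgeR adjusted p = 0.00126). The tetraspanin CD9 fell to 74.2 ± 22.5 CPM in Dox, against 88.2 ± 27.7 CPM in woDox cells (log2 change -0.24, SE 0.043, edgeR adjusted p = 0.00207). KRT18, a keratin of simple epithelia, fell with a log2 change of -0.14 (adjusted p = 0.0165) and was lost without pair 3 or 4 (adjusted p 0.124 and 0.0568).

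Of 9 other laminin chains 6 were tested, with a median log2 change of 0.16 with the block. In edgeR 0 passed without or with the block, against 0.0384% and 13.8% of all tested genes. DESeq2 also called 0 without or with the block, against 1.36% and 7.58% of all. At an unadjusted p under 0.05 edgeR counted 1 without and 3 with the block, against 9.38% and 28.5% of all tested genes, and 2 passed with the block when pair 3 was left out. LAMB1, a chain of widely expressed laminins, averaged 408 ± 28.9 CPM in Dox and 375 ± 39.2 CPM in woDox cells and did not pass (adjusted p = 0.0706). Of 5 other plakins 3 rose with the block, against 7.51% of all tested genes, with a median log2 change of 0.22. These were desmoplakin (DSP, log2 change 0.22, adjusted p = 0.00253), the microtubule and actin crosslinker MACF1 (0.16, adjusted p = 0.00805) and periplakin (PPL, 1.18, adjusted p = 0.00292). MACF1 was lost without pair 4 (adjusted p = 0.0611). PPL was lost without pair 1 (adjusted p = 0.131), and it stood at 8.76, 1.36, 0.714 and 1.37 CPM in Dox libraries 1 to 4, against 2.84, 0.747, 0.467 and 0.897 CPM in woDox libraries 1 to 4. In edgeR without the block 0 of the 46 tested genes of these 4 lists passed, against 0.0384% of all. At an unadjusted p under 0.05 there were 10 of the 46, against 9.38% of all tested genes. DESeq2 without the block called 5, against 1.36% of all.

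**Figure D5:**
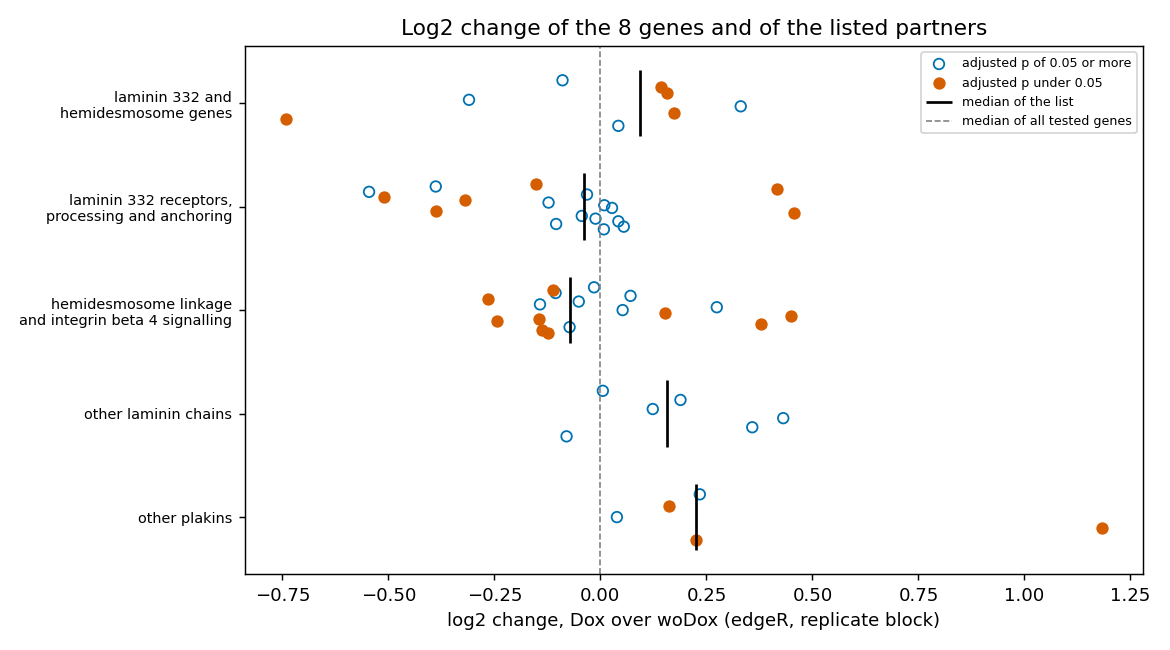
Log2 change of Dox over woDox in the block fit (x axis) for every tested gene of the 8 genes and of 4 lists of partner genes (rows), with filled points for an adjusted p under 0.05, black bars at the list medians and a dashed line at the median of all tested genes. Among the 8 genes LAMB3 lies lowest at -0.74 and ITGB4 highest at 0.33, and among the other plakins PPL lies at 1.18.

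Markers of basal keratinocytes, in which hemidesmosomes are best known, were partly at the limit of detection. Of 12 such markers 5 were tested, and over all 8 libraries KRT14 and CDH3 had 1 read each, KRT6A 0, DSG3 4, TP63 8 and KRT5 12 reads. Of the 5 tested, 1 was called with the block, against 13.8% of all tested genes. This was DSC3, a desmosomal cadherin, which rose (log2 change 0.25, adjusted p = 0.00485). The summed level of the 12 was 82.1 to 86.5 CPM in Dox and 68.7 to 87.5 CPM in woDox libraries. Most of it came from DSC3 and SFN. DSC3 averaged 53.8 ± 5.91 CPM in Dox and 45.3 ± 8.13 CPM in woDox cells. SFN averaged 26.2 ± 5.89 CPM in Dox and 27.9 ± 3.34 CPM in woDox cells. The cells are labelled podocyte-derived, and the defining marker NPHS1 had 3 reads over the 8 libraries, while CD2AP averaged 245 ± 7.52 CPM in Dox and 229 ± 16.6 CPM in woDox cells. WT1 averaged 2.54 ± 1.47 CPM in Dox and 3.18 ± 1.68 CPM in woDox cells. Of 8 tested podocyte markers 1 was called with the block, against 13.8% of all tested genes. This was PODXL, the sialomucin podocalyxin, which rose to 3.72 ± 0.456 CPM in Dox, against 2.64 ± 0.631 CPM in woDox cells (adjusted p = 0.0350). It was lost without pair 1, 2 or 4. The summed level of all 11 listed was 679 to 1067 CPM in Dox and 608 to 959 CPM in woDox libraries. Most of it came from KIRREL1, at 507 ± 174 CPM in Dox and 444 ± 159 CPM in woDox cells.

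Of 10 parietal or tubular epithelial markers 7 were tested. With the block 1 was higher and 3 were lower, against 7.51% and 6.29% of all tested genes. Over all 8 libraries LRP2 had 0, CDH1 5 and CUBN 56 reads, too few to be tested. The summed level of the 10 was 946 to 1163 CPM in Dox and 1083 to 1298 CPM in woDox libraries. CLDN1, a tight junction claudin, fell to 127 ± 20.4 CPM in Dox, against 171 ± 10.9 CPM in woDox cells (log2 change -0.44, SE 0.054, edgeR adjusted p = 5.32e-04). PAX8, a renal transcription factor, fell with a log2 change of -0.35 (adjusted p = 0.0410) and was lost without pair 3 or 4 (adjusted p 0.0621 and 0.197). The keratin KRT19 fell with a log2 change of -0.12 (adjusted p = 0.0472) and was lost without pair 2, 3 or 4. PAX2, related to PAX8, rose with a log2 change of 0.36 (adjusted p = 0.00208). The part of these markers in the values of the 8 genes was not tested. Leukocyte markers summed to 2.19 to 2.94 CPM in Dox and 3.41 to 3.92 CPM in woDox libraries. Endothelial markers summed to 0.714 to 1.27 CPM in Dox and 0.778 to 1.45 CPM in woDox libraries. Of 6 markers each, 3 leukocyte and 1 endothelial were tested. In either list edgeR called 0, against 0.0384% of all tested genes without and 13.8% with the block. At an unadjusted p under 0.05 it counted 2 without and 2 with the block, against 9.38% and 28.5% of all tested genes. Both times these were leukocyte markers lower in Dox cells. CSF1R averaged 1.19 ± 0.265 CPM in Dox and 1.86 ± 0.233 CPM in woDox cells. LST1 averaged 0.771 ± 0.126 CPM in Dox and 1.16 ± 0.290 CPM in woDox cells.

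The genes with profiles nearest to the 2 most variable of the 8 genes were found by the root mean square difference of mean-centred log2 CPM over the 8 libraries, among genes with a mean of at least 10 CPM. For COL17A1, whose log2 CPM spanned 2.16, these were CPED1 (0.199), the 5′-nucleotidase NT5E (0.203) and ALS2CL (0.212). For ITGB4, with a span of 1.66, they were the semaphorin SEMA3B (0.138), the sterol reductase TM7SF2 (0.141) and the pseudokinase TRIB3 (0.170). All 3 neighbours of ITGB4 were highest in the libraries numbered 1, and all 3 neighbours of COL17A1 were lowest there. This follows from the choice of neighbours by the same profile. Of all tested genes, 21.9% were highest and 22.4% lowest in both libraries numbered 1.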

How the data were processed

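RNA of 4 Dox and 4 woDox libraries of AB8 cells was read in single reads of 75 bases from a directional kit, per the labels' protocols. The authors deposited raw read counts per Ensembl gene, used here, and a normalized table, not used. Per the submitters' processing notes, HISAT2 2.1.0, HTSeq 0.11.1, Trimmomatic 0.38, DESeq2 1.24.0 and bcl2fastq took part, in roles not stated, with the builds hg38 and GRCh38. The annotation release and strand setting of the counting were not stated. GENCODE release 29 (GRCh38) gave names, positions and exon lengths, and 58275 of 58395 genes matched it.

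Genes were kept by filterByExpr (minimum count 10), scaled by TMM and tested on the whole table, two-sided, with edgeR 4.0.16 (quasi-likelihood, robust, Benjamini-Hochberg 0.05) in R 4.3.3. This fit, without a block, is the main one. DESeq2 1.42.0, other scalings and filters, and left-out libraries were alternatives. Adjusted p-values come from edgeR unless DESeq2 is named. A log2 CPM has a prior count of 2, and levels per length divide CPM by the union of annotated exons. The scripts were tested on simulated counts.

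Same-numbered libraries, numbered in the titles, deviated together from their group means (r = 0.648 to 0.911 over 11502 genes). The best correlation of 8 of 8 was with their own number, so the block fit is given beside the main one. Differently numbered libraries gave r = -0.775 to 0.667, which overlaps the same-numbered range. The highest same-numbered r, 0.911, was that of the libraries numbered 1. What a number marks, and whether libraries came from separate cultures, is not stated, so the p-values describe the spread of these libraries, which may be technical. Limits from 3 reads cover counting error only.

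The members, lists and motifs were chosen with earlier results of these data known. Named genes were the members, CRB2, up to 4 called genes of each list by smallest p with the block, otherwise up to 2 by mean CPM, markers that bear on the labels, and 3 nearest profiles. SDC2, COL7A1, ECM1, ITGA3, ITGB1, LAMB1, SFN, KIRREL1, CSF1R and LST1 were named after their values were seen. Of the genes first listed, 2 are not reported here, and the lists' counts leave them out, a choice made after their values were seen.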

Additional observations from a re-analysis of the deposited data

Results flagged for a closer look

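Of 18 groups of 4 libraries, the 8 genes and CRB2 in both groups, 3 held a library whose gap to its nearest neighbour, as a share of the group's range, passed Dixon's 95% limit, where chance gives about 1 in 20. All 3 were libraries numbered 1. Libraries of the same number deviated together, so the 18 groups are not independent and 1 in 20 is only a rough mark. Both libraries numbered 1 lay outside the other 6 for 44.2% of all tested genes. LAMA3 stood at 57.7 CPM in Dox library 1, with a gap of 0.904 of the range, and at 48.0 CPM in woDox library 1, with a gap of 0.928. CRB2 stood at 1734 CPM in Dox library 1, with a gap of 0.879, below the 4252 to 4599 CPM of the other Dox libraries.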

How the results depend on the processing

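Counts are given for all genes, the 8 genes and the 4 partner lists, in that order. Without the block 6, 0 and 0 passed. The replicate block gave 2159, 4 and 18, DESeq2 188, 1 and 5, DESeq2 with the replicate block 1048, 3 and 12, no filter 37, 0 and 1, and no block without both libraries numbered 1 543, 0 and 4. The replicate block without pairs 1 to 4 gave 1721, 3 and 14, then 1969, 3 and 17, then 1254, 4 and 12, then 909, 1 and 9. Leaving out 1 library without the block gave 3 to 16 genes, with 16 where Dox library 1 was left out, and 0 of the 8. With the replicate block, RLE scaling gave 2150, 4 and 19, upper-quartile scaling 2208, 4 and 18, library totals 2199, 4 and 17 and no robust estimation 2067, 4 and 19, all chosen after seeing the data. The cause of these shifts was not tested. Without the block, LAMA3 reversed to -0.24 without Dox library 1, to -7.82e-04 without woDox library 4 and to -0.051 without both libraries 1, and with the block to -0.053 without pair 1. Without Dox library 1, ITGB4, CD151, ECM1 and PPL also reversed. With 1 library left out, the log2 changes ran over -0.24 to 0.25 for LAMA3, -0.065 to 0.59 for ITGB4, -0.21 to 0.0056 for CD151, -0.34 to 0.039 for ECM1, -0.11 to 2.12 for PPL, -0.63 to -0.033 for COL17A1, 0.0096 to 0.22 for PLEC, 0.081 to 0.24 for ITGA6, -0.83 to -0.65 for LAMB3 and 0.13 to 0.18 for DST, and none of the reversed values was called. COL17A1 was nearest to 0 without Dox library 1 and PLEC without woDox library 1, at 0.0096. With the block, ITGB4 came to 0.093 and PLEC to 0.10 without pair 1, and COL17A1 to -0.20 without pair 4. Of the 8 genes COL17A1 had the fewest reads, 20 to 104 a library.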
